A study of Mus musculus with 12 samples.

Results

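Tumours treated with an antibody against PD-L1 were compared with tumours treated with an antibody against PD-1, on the same background of CSF1R inhibition and chemotherapy. The libraries were taken by their treatment labels: 2 carried PLX+PTX+aPD-L1 and 6 carried PLX+PTX+aPD-1, out of 12 in the series. The labels divide the 6 into 3 titled R and 3 titled NR, suffixes that they do not expand. All 8 were mammary gland tumours of the MMTV-PyMT genotype, in which the polyoma middle T oncogene is expressed from a mammary tumour virus promoter, so the tumour arises in mammary epithelium and a single oncogene drives it. Both treatments held PLX, a CSF1R inhibitor by the series title, and PTX, the chemotherapy, and the groups were labelled as differing by the antibody alone. Doses, times, antibody clones, and the age and sex of the mice are not given in the sources used here. Each of the 750 endogenous probes of the nCounter Mouse PanCancer IO360 panel was examined, after RNA from pieces of frozen tumour had been copied into cDNA and amplified for the panel's targets. In bulk tissue of this kind, fewer cells of a type and less RNA per cell cannot be told apart.

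PD-1 is an inhibitory receptor on activated T cells, and PD-L1 is its ligand on tumour and myeloid cells. Either antibody interrupts the same contact from opposite sides. An antibody against PD-1 also blocks binding of the second ligand, PD-L2, while an antibody against PD-L1 also blocks binding of PD-L1 to the costimulatory molecule CD80.

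The 2 aPD-L1 libraries had a low signal. Their endogenous counts totalled 141021 and 98741, against 128083 in R replicate 2 and 298726 to 359627 in the other 5 aPD-1 libraries. The geometric mean of the 20 housekeeping probes was 189 and 86.6 raw counts in aPD-L1, and 127 in R replicate 2 and 260.4 to 359 in the other 5. Positive controls, which are added in fixed amounts, gave 1369 and 1083 counts in aPD-L1 and 968 to 1370.4 in aPD-1. Every count below is normalised, that is, divided by the housekeeping signal of its library, unless it is called raw. A probe counted as detected above the mean plus 2 SD of the 8 negative controls of its library. On the normalised scale this limit was 43.1 and 65.5 in the aPD-L1 libraries, 50.6 in R replicate 2, and 13.3 to 34.2 in the other 5. Among 148 probes detected in none of the 12 libraries, the median log2 ratio of aPD-L1 to aPD-1 was 0.74 (quartiles 0.37 and 1.09). Epcam, an epithelial marker, checks the tissue label: it had 5049 and 5083 normalised counts in aPD-L1 and 5441 to 8314 (median 6609) in aPD-1.

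**Figure D1:**
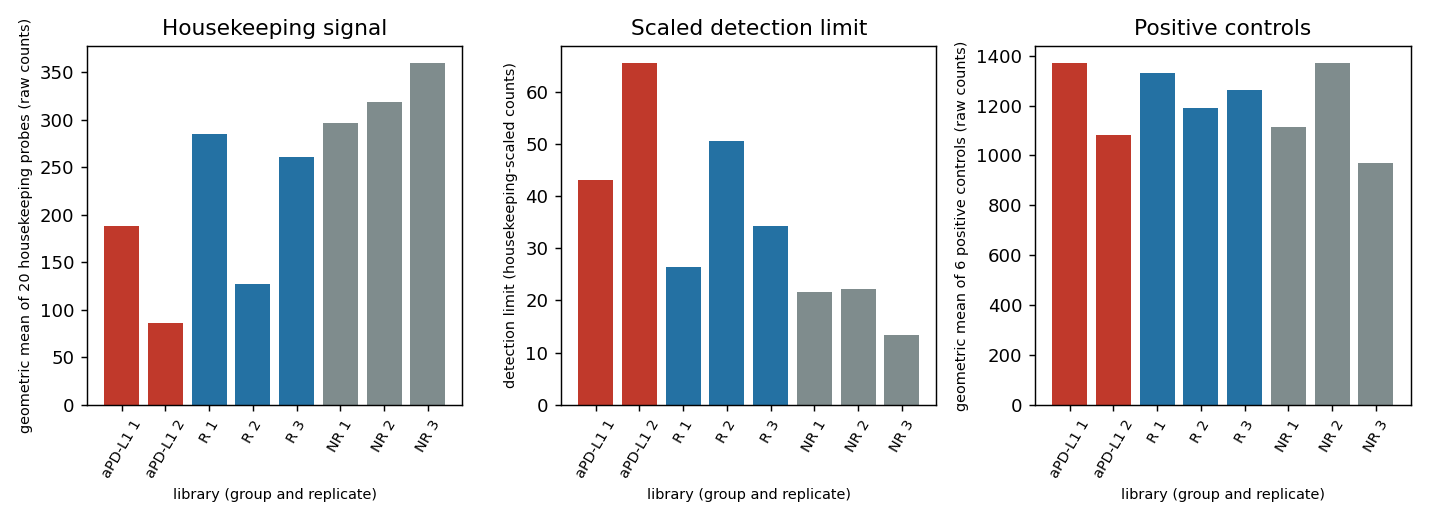
Signal of the 8 libraries, with the aPD-L1 libraries at the left. The bars give the housekeeping geometric mean in raw counts, the detection limit in normalised counts and the geometric mean of the 6 positive controls in raw counts. The limit stands at 43.1 and 65.5 in aPD-L1, against 50.6 in R replicate 2 and no more than 34.2 in the other 5 aPD-1 libraries.

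Across the panel, 35 of 615 tested genes rose in aPD-L1 relative to aPD-1 and 0 fell, which is 5.69% higher and 0% lower (edgeR's quasi-likelihood test, Benjamini-Hochberg adjusted p under 0.05, 7 residual degrees of freedom). The log2 fold changes of the 35 ran from 0.9996 to 5.64 with a median of 2.01, and over all tested genes the median was 0.10 and 359 (58.4%) were above 0. Genes with an unadjusted p under 0.05 numbered 87 higher and 23 lower. The split between directions depended on the values used: DESeq2 on the same counts gave 40 higher and 5 lower, limma-voom 32 and 0, and limma on the authors' deposited log2 values 28 higher and 33 lower. All 35 rises were also above 0 on the deposited values, where 27 passed. Both aPD-L1 libraries lay above all 6 aPD-1 libraries for 32 of the 35 genes. The same held for 71 of all 615 tested genes (11.5%), and both lay below all 6 for 29 (4.72%). The labels do not tie the libraries to separate mice, and a p-value here therefore describes the scatter among these libraries, some of which may be technical.

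Most of the rises began from levels near background. Of the 35 genes, 26 were detected in both aPD-L1 libraries, 4 in 1 and 5 in neither. In the aPD-1 libraries 14 were detected in none, 16 in 1 to 5 and 5 in all 6. Both aPD-L1 libraries exceeded 65.5, the highest scaled limit among the 8 libraries, for 22 genes. Unscaled raw counts were higher in aPD-L1 replicate 1 than in all 6 aPD-1 libraries for 25 of the 35, in replicate 2 for 22 and in both for 19. Over all 615 tested genes they were higher in both for 20. The 35 were called on these same libraries. In total endogenous count, aPD-L1 replicate 1 exceeded R replicate 2 and no other aPD-1 library, and aPD-L1 replicate 2 exceeded none. After the negative-control mean was subtracted from every library, all 35 stayed above 0 and 24 passed limma at the same threshold, among them 3 of the 5 detected in neither aPD-L1 library (Cd2, Il22ra1 and Nlrp3, but not Gzma and Mfng). Against R replicate 2 alone, the aPD-1 library of similar signal, all 35 were above 0 with a median log2 fold change of 1.75, and for 10 the fold was as large as in the joint comparison or larger. With a single library on that side, whose spread had to be taken from the other groups, 3 passed (Kdr, Sox2 and Tymp). The part of the low signal in the calls was not tested.

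The number of rises also rested on single libraries. Without aPD-L1 replicate 2 there were 14 higher and 2 lower genes, and without aPD-L1 replicate 1 there were 53 higher and 0 lower. Of the 35 genes, 13 passed without replicate 2 and 31 without replicate 1. Leaving out an aPD-1, PLX+PTX or PTX library gave 26 to 44 higher and 0 to 2 lower. In all 12 of these fits the same 12 genes passed, among them Sox2, Tymp, Hdc, Hc, Ifitm1, Wnt11, Zap70, Cxcl12, Cxcl15, Btla and Cd2. Another 14 lost the threshold only without aPD-L1 replicate 2, and 9 lost it without at least 1 other library.

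**Figure D2:**
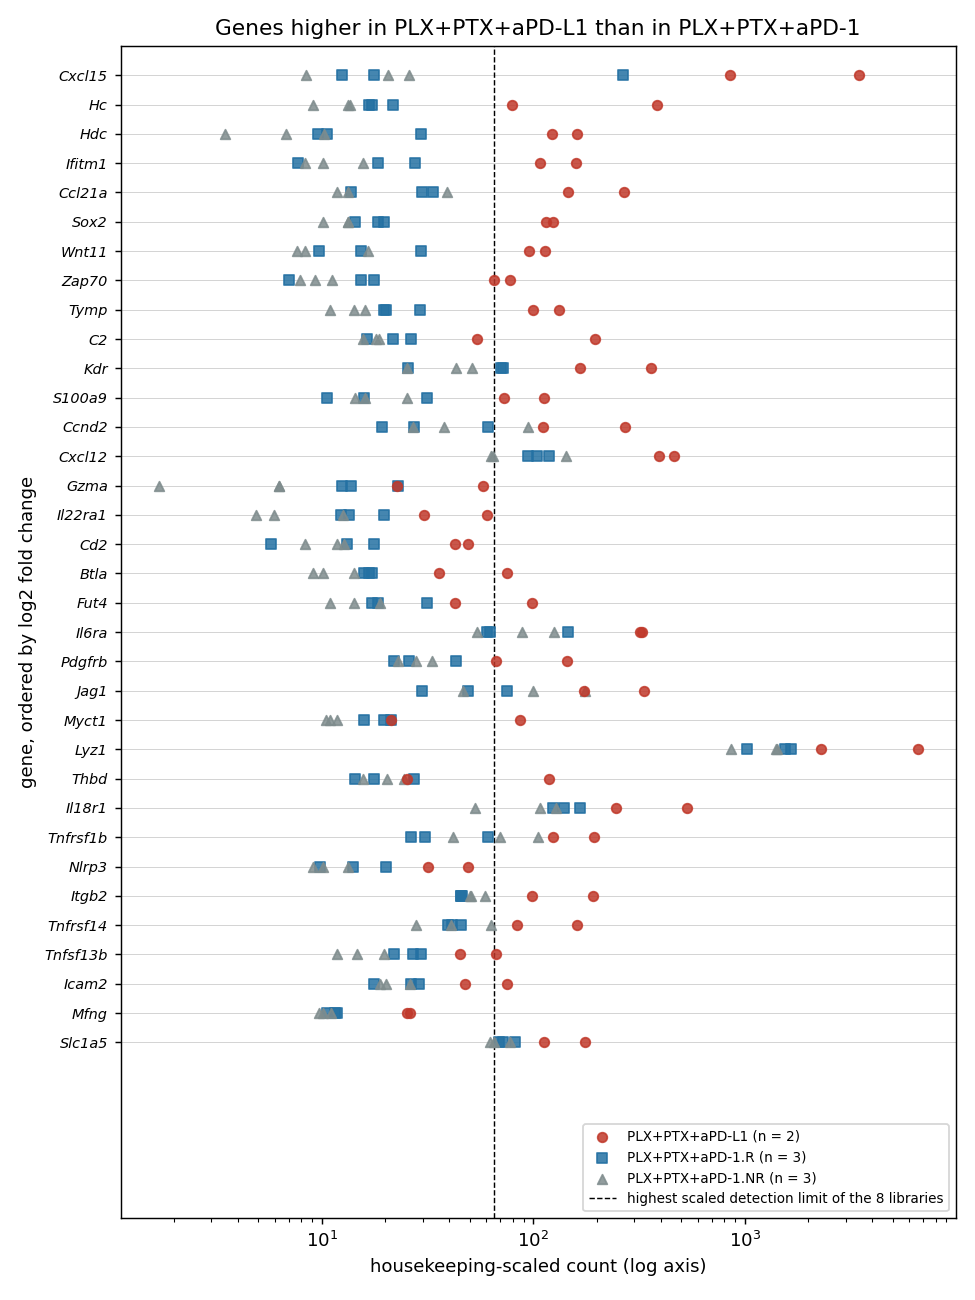
Normalised counts of 34 of the 35 genes that rose, on a log axis, 1 row a gene, ordered by log2 fold change with the largest at the top. Circles are the 2 aPD-L1 libraries, squares the 3 R and triangles the 3 NR libraries, and the dashed line is the highest scaled detection limit of the 8 libraries, 65.5. Both circles lie right of all squares and triangles except in Gzma, Jag1 and Thbd.

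Only 5 of the rises were detected in all 8 libraries, so that each of their values lay above the limit of its library. Cxcl12, the ligand of the receptor CXCR4 and a product of stromal cells, had 465 and 393 normalised counts in the aPD-L1 libraries, against 105, 118 and 94.2 in R and 63.4, 143 and 64.8 in NR. Every aPD-1 value lay far below both aPD-L1 values (log2 fold change 2.14, SE 0.29, adjusted p = 6.5e-04). Il6ra, the binding chain of the interleukin-6 receptor, had 327 and 321 normalised counts in the aPD-L1 libraries, against 62.4, 146 and 60.6 in R and 54.1, 88.9 and 125 in NR (log2 fold change 1.87, SE 0.35, adjusted p = 0.00660). Its highest aPD-1 value was in R replicate 2, the low-signal library, and was still below both aPD-L1 values. Il18r1, the interleukin-18 receptor chain carried by T and NK cells, had 247 and 535 normalised counts in the aPD-L1 libraries, against 139.7, 124 and 167 in R and 108, 127 and 52.9 in NR (log2 fold change 1.72, SE 0.34, adjusted p = 0.00875). Lyz1, a lysozyme gene of mouse Paneth cells, had 2283 and 6568 normalised counts in the aPD-L1 libraries, against 1545, 1024 and 1657 in R and 1428, 864 and 1403 in NR (log2 fold change 1.75, SE 0.38, adjusted p = 0.0165). The gene has a close copy, Lyz2, and the sources used here do not say whether the probe separates them. Slc1a5, which carries glutamine into cells, had 113 and 176 normalised counts in the aPD-L1 libraries, against 81.7, 68.95 and 72.1 in R and 62.6, 65.3 and 78.01 in NR (log2 fold change 0.9996, SE 0.27, adjusted p = 0.0477). Without aPD-L1 replicate 2 the log2 fold change of Il6ra was 1.88, close to that with both libraries, and its adjusted p was 0.0566. That of Il18r1 was 1.07 (adjusted p = 0.222) and that of Lyz1 0.79 (adjusted p = 0.370). Over all alternatives of these 3 genes the adjusted p ran from 1.5e-04 to 0.262, 4.5e-04 to 0.241 and 0.00205 to 0.370. Slc1a5 lost the threshold without any of 10 single libraries, as given with the least stable calls.

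**Figure D3:**
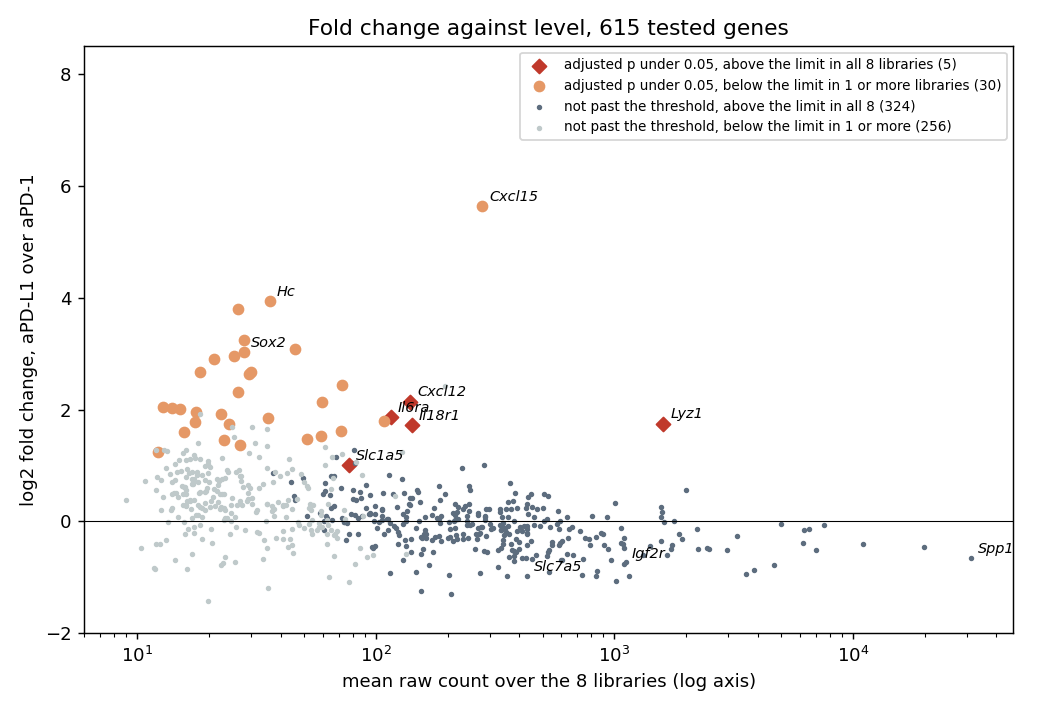
Log2 fold change of aPD-L1 over aPD-1 against the mean raw count over the 8 libraries (log axis) for the 615 tested genes. Diamonds mark the 5 called genes detected in all 8 libraries, the other coloured points the 30 called genes below the limit in 1 or more, and small points the genes not past the threshold. The called genes lie mostly at low counts, and all are above 0.

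Among the 329 tested genes detected in all 8 libraries, 5 were called and 140 had a log2 fold change above 0, with a median of −0.09. The other 286 tested genes held 30 of the calls. Counts of called list members below stand beside the 5.69% called over all tested genes. No list was tested as a set.

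Sox2, a transcription factor of pluripotent and neural stem cells, had the smallest p. It had 115 and 124 normalised counts in aPD-L1 and 10.1 to 19.7 (median 13.9) in aPD-1, none of them above the limit there (log2 fold change 3.03, SE 0.25, adjusted p = 2.9e-05). Taking the mean scaled limit of the aPD-1 libraries, 28.1, in place of their counts, the mean of the 2 aPD-L1 libraries was at least 4.27-fold higher for Sox2. This bound holds for the mean and not for each library. Hdc, which makes histamine and marks mast cells and basophils, had 122 and 162 in aPD-L1 and 3.48 to 29.6 (median 9.92) in aPD-1 (log2 fold change 3.79, SE 0.39, adjusted p = 9.9e-05), at least 5.06-fold higher by the same bound. Cxcl15, a neutrophil-attracting chemokine described in mouse lung epithelium, had the largest fold change. Its level was 848 and 3464 in aPD-L1 and 8.45 to 265 (median 19.1) in aPD-1 (log2 fold change 5.64, SE 0.81, adjusted p = 9.9e-04). A single aPD-1 library, R replicate 1 with 265, stood apart, while the other 5 lay between 8.45 and 25.8. The alternatives for Cxcl15 held no value from DESeq2. Tymp, thymidine phosphorylase, had 99.5 and 133 in aPD-L1 and 10.99 to 29.00 (median 17.9) in aPD-1 (log2 fold change 2.68, SE 0.25, adjusted p = 5.4e-05). Sox2 and Tymp passed in all 25 of their alternatives.

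The sequences around the start sites of Sox2, Hdc and Cxcl15 are shown because these genes rose together from levels near background, with the smallest p (Sox2) and the largest fold change (Cxcl15) among them. They run from 250 bases before to 50 after the start, 5′ to 3′ on the gene's strand, from RefSeq, build GRCm38.p6. Capitals mark matches, on either strand, to 3 motifs that do not overlap here. The TATA box was searched as TATAAA. The second motif was the box named by its letters CCAAT. The GC box was searched as GGGCGG.
Sox2, chr3:34649745-34650044, plus strand: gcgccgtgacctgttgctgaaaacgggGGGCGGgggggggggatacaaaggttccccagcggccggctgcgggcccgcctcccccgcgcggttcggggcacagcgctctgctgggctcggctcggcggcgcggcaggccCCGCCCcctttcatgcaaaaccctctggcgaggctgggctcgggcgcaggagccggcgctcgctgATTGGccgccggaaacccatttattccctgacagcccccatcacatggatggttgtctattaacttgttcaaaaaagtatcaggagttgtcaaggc
Hdc, chr2:126618629-126618928, minus strand: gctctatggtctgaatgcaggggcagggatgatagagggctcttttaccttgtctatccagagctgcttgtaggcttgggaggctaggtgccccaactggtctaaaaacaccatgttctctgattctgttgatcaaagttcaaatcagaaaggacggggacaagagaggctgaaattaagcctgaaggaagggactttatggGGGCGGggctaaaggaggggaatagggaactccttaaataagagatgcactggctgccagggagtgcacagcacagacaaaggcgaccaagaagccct
Cxcl15, chr5:90794284-90794583, plus strand: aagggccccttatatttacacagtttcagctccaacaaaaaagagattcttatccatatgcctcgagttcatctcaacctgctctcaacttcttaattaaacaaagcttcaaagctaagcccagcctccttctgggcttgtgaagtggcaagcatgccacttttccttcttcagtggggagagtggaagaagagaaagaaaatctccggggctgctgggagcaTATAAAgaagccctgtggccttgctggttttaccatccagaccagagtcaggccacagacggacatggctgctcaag
Sox2 held a CCAAT box in reverse and a GC box in each orientation, Hdc a GC box and Cxcl15 a TATA box 27 bases before the start. None of the 3 motifs was in all 3 windows. RefSeq promoters were matched by symbol for 25 of the 35 called genes. These genes had 32 promoters, of which 5 held the TATA box, 8 the CCAAT box and 9 the GC box. Of all 32851 promoters in the table, 13.62%, 37.41% and 35.66% held them. A match is a run of letters and does not show that a factor binds.

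The genes of the antibodies' own targets gave no difference that the panel could resolve. Pdcd1, which encodes PD-1, had raw counts of 9 and 6 in aPD-L1, against 14, 7 and 7 in R and 7, 14 and 4 in NR, below the limit in every library. Pdcd1lg2, which encodes PD-L2, had 17 and 2, against 7, 5 and 11 in R and 7, 14 and 12 in NR, also below the limit throughout. Cd274, which encodes PD-L1, was detected in 1 aPD-L1 library and 2 aPD-1 libraries. It had 18.6 and 66.5 normalised counts in aPD-L1 and 14.4 to 34.6 (median 22.4) in aPD-1 (log2 fold change 0.78, SE 0.47, adjusted p = 0.392). The sign turned without aPD-L1 replicate 2 (−0.28). Of 16 tested checkpoint ligands and receptors, 2 rose and 10 were above 0 (median 0.34, and −0.05 after background subtraction). The pair that rose were Btla and Tnfrsf14, an inhibitory lymphocyte receptor and its ligand HVEM. Btla had 35.8 and 75.1 in aPD-L1 and 9.05 to 17.3 (median 14.96) in aPD-1 (log2 fold change 1.95, SE 0.30, adjusted p = 0.00163), and was below the limit in all 6 aPD-1 libraries and in aPD-L1 replicate 1. Lag3, an inhibitory receptor of exhausted T cells, had 35.8 and 52.01 in aPD-L1 and 15.2 to 31.5 (median 23.03) in aPD-1 and did not pass (log2 fold change 0.91, SE 0.31, adjusted p = 0.117).

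T cell transcripts were mostly close to background. Of 20 T cell genes on the panel 12 were detected in none of the 8 libraries. In both aPD-L1 libraries 2 were detected, and in all 6 aPD-1 libraries 1 was. Of 11 tested members 2 rose, with 9 above 0 (median 0.53, and 0.07 after subtraction). Zap70, the kinase that relays the T cell receptor signal, had 65.04 and 78.02 normalised counts in aPD-L1 and 7.03 to 17.7 (median 10.2) in aPD-1 (log2 fold change 2.68, SE 0.32, adjusted p = 1.7e-04). It was at least 2.55-fold higher by the bound used above. Cd2, an adhesion molecule of T and NK cells, had 42.5 and 49.1 in aPD-L1 and 5.77 to 17.7 (median 12.2) in aPD-1, and none of these 8 values exceeded its limit (log2 fold change 2.01, SE 0.35, adjusted p = 0.00389). The summed level of the tested and untested T cell genes was 1086 and 2259.6 normalised counts in the aPD-L1 libraries, against 1451 to 2222 in the aPD-1 libraries, so it overlapped between groups. That sum mixes detected members with members below the limit, and which genes weigh most in it is not given here. Cd8a was below the limit in all 8 libraries, with raw counts of 7 and 5 in aPD-L1, 27, 5 and 10 in R and 9, 9 and 17 in NR, and so was Ifng, with 3 to 7 counts. Cd28, the costimulatory receptor, did not pass (log2 fold change 0.83, SE 0.27, adjusted p = 0.0990).

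Cytotoxic genes gave 1 rise among 7 tested (6 above 0, median 0.21, and −0.11 after subtraction), beside 5.69% over all tested genes. Gzma, a granule protease, had 22.6 and 57.8 normalised counts in aPD-L1 and 1.69 to 22.9 (median 9.39) in aPD-1, with overlap and with both aPD-L1 values below their limits (log2 fold change 2.04, SE 0.44, adjusted p = 0.0149). After subtraction the log2 fold change was 0.40 (adjusted p = 0.249). Its adjusted p was 0.222 without aPD-L1 replicate 2, within 0.00149 to 0.428 over its alternatives. Gzmb, another granule protease, had 25.2 and 37.6 in aPD-L1 and 10.99 to 43.9 (median 21.9) in aPD-1 and did not pass (log2 fold change 0.49, SE 0.31, adjusted p = 0.443). Klrd1, a chain of an NK cell receptor, did not pass either (log2 fold change 1.28, SE 0.41, adjusted p = 0.0990). Itgae, an integrin chain of resident memory T cells, which the series title names, had 13.3 and 69.3 in aPD-L1 and 10.99 to 23.6 (median 19.6) in aPD-1 (log2 fold change 0.99, SE 0.56, adjusted p = 0.349). It passed without aPD-L1 replicate 1 (adjusted p = 0.0420) and had a log2 fold change of −0.48 without aPD-L1 replicate 2. None of the 2 NK cell, 3 regulatory T cell and 2 B cell genes tested was called.

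Of the lymphoid tissue genes, Ccl21a rose. All 5 tested members of the lymph node list were above 0 (median 0.90, and 0.07 after subtraction), while 3 of its 6 members on the panel were detected in none of the 8 libraries. The summed level of the list was 249.5 and 422 normalised counts in the aPD-L1 libraries, against 63.4 to 126 in the aPD-1 libraries. Ccl21a alone made up 146 and 269 of the aPD-L1 sums. The scaled negative-control mean of a probe was 21.9 and 32.5 in aPD-L1 and 9.32 to 23.9 in aPD-1. Ccl21a, a chemokine that draws T cells and dendritic cells into lymph nodes, had 146 and 269 in aPD-L1 and 11.8 to 39.00 (median 21.8) in aPD-1 (log2 fold change 3.09, SE 0.69, adjusted p = 0.0178). Its adjusted p was 0.162 without aPD-L1 replicate 2 and ran from 5.3e-04 to 0.257 over its alternatives, and the gene has near-identical copies that share its sequence. Ccl19, the other ligand of the same receptor, had 30.5 and 46.2 in aPD-L1 and 11.8 to 35.5 (median 15.8) in aPD-1 and did not pass (log2 fold change 1.12, SE 0.34, adjusted p = 0.0767). It passed once R replicate 2 was left out (adjusted p = 0.0260).

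Chemokine genes lay on both sides of 0. Of 32 tested chemokines and receptors, 19 were above 0 and 13 below, and the median of 0.10 turned to −0.02 with TMM scaling and −0.03 on the deposited values. Cxcl12, Cxcl15 and Ccl21a, all described above, were the 3 that rose. Ccl12, a chemokine that attracts monocytes, was lower in both aPD-L1 libraries than in any aPD-1 library, with 35.8 and 37.6 in aPD-L1 and 57.7 to 94.7 (median 67.00) in aPD-1. It lay below the limit in both aPD-L1 libraries and did not pass (log2 fold change −0.99, SE 0.32, adjusted p = 0.0992), although it passed as lower after subtraction (log2 fold change −1.08, adjusted p = 0.0198).

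Interleukin receptors and TNF family members each gave 3 rises. Of 18 tested interleukins and receptors, 16 were above 0 (median 0.68, and 0.16 after subtraction). Besides Il6ra and Il18r1, Il22ra1 passed. It encodes the epithelial receptor chain for interleukin-22 and had 30.5 and 60.7 normalised counts in aPD-L1 and 4.88 to 19.7 (median 12.4) in aPD-1, all below the limit of their library (log2 fold change 2.02, SE 0.38, adjusted p = 0.00659). Of 20 tested TNF superfamily members 13 were above 0 (median 0.26, and −0.04 on the deposited values). Tnfsf13b encodes BAFF, a survival factor of B cells, and had 45.1 and 66.5 in aPD-L1 and 11.8 to 29.6 (median 20.8) in aPD-1 (log2 fold change 1.45, SE 0.28, adjusted p = 0.00702). Tnfrsf1b and Tnfrsf14 also passed. Without aPD-L1 replicate 2 the adjusted p was 0.109 for Il22ra1 and 0.0918 for Tnfsf13b. Over all alternatives these ran from 6.0e-04 to 0.435 and from 0.00112 to 0.395.

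Complement genes Hc and C2 rose among 5 tested. Hc encodes component C5, whose cleavage starts the lytic complex, and had 79.6 and 384 normalised counts in aPD-L1 and 9.05 to 21.7 (median 15.1) in aPD-1 (log2 fold change 3.93, SE 0.43, adjusted p = 1.0e-04). The mean of the 2 aPD-L1 libraries was at least 8.27-fold higher by the bound. Replicate 2 was the higher of the pair, and replicate 1 alone, at 79.6 over a limit of 28.1, did not reach that fold. C2, a protease of the classical and lectin pathways, had 54.4 and 196 in aPD-L1 and 15.7 to 26.4 (median 18.4) in aPD-1 (log2 fold change 2.64, SE 0.40, adjusted p = 0.00147). Its adjusted p was 0.0547 without aPD-L1 replicate 2, within 8.2e-07 to 0.161 over its alternatives. The list as a whole had 3 members above 0 and 2 below (median 0.39, and −0.05 after subtraction).

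Interferon-induced genes gave a single rise among 23 tested, beside 5.69% over all tested genes. Ifitm1, which encodes a membrane protein that restricts virus entry, had 108 and 159 normalised counts in aPD-L1 and 7.69 to 27.6 (median 12.9) in aPD-1 (log2 fold change 3.24, SE 0.36, adjusted p = 1.0e-04), at least 4.75-fold higher by the bound. Ifitm2, its neighbour in the family, had 1902 and 2809 in aPD-L1 and 2748 to 4163 (median 3232) in aPD-1 and did not pass (log2 fold change −0.51, SE 0.22, adjusted p = 0.247), except on the deposited values, where it was lower (adjusted p = 0.0375). Of 23 tested genes of the type I interferon list, 10 were above 0 and 13 below, with a median of −0.32. That median was −0.43 with TMM, −0.08 with total-count scaling and −0.51 on the deposited values, and it was −0.76 without aPD-L1 replicate 2 and turned to 0.12 without aPD-L1 replicate 1. Of 15 tested MHC class I presentation genes 0 were called, 11 were below 0 (median −0.15), and the median turned to 0.11 with total-count scaling. Tapbp, which loads peptide onto class I molecules, had 365 and 448 in aPD-L1 and 516 to 751 (median 659) in aPD-1 (log2 fold change −0.69, SE 0.24, adjusted p = 0.130), and passed as lower on the deposited values (adjusted p = 0.0379).

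Macrophage genes did not pass in either direction. Of 20 tested members 0 were called, 9 were above 0 and 11 below, and the median of −0.12 turned to 0.20 with total-count scaling and 0.11 on the deposited values. Csf1r, the receptor that PLX inhibits and on which macrophages depend, had 111 and 127 normalised counts in aPD-L1 and 66.9 to 158 (median 119) in aPD-1 (log2 fold change 0.05, SE 0.39, adjusted p = 0.957). The groups overlapped fully. Cd163, a scavenger receptor of macrophages, had 25.2 and 54.9 in aPD-L1 and 12.5 to 29.6 (median 18.3) in aPD-1 (log2 fold change 0.96, SE 0.37, adjusted p = 0.178), and Mrc1, the mannose receptor, had 59.7 and 113 in aPD-L1 and 41.3 to 70.9 (median 44.4) in aPD-1 (log2 fold change 0.78, SE 0.42, adjusted p = 0.334). Spp1, the gene of the secreted matrix protein osteopontin, had 4281 and 39921 in aPD-L1 and 19887 to 60199 (median 31782) in aPD-1. The aPD-L1 libraries lay on either side of the aPD-1 median, and the test did not pass (log2 fold change −0.66, SE 0.66, adjusted p = 0.626). It passed as lower on the deposited values (log2 fold change −1.59, adjusted p = 0.0373). Without aPD-L1 replicate 2 it also passed as lower (adjusted p = 0.0431), and without replicate 1 the log2 fold change was 0.20.

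Granulocyte genes had the highest median of the lists with 5 or more tested members. Of 8 tested, 7 were above 0 (median 1.27, and 0.29 after subtraction), and S100a9 and Itgb2 passed. Summed over all 15 members the level was 1161 and 1338 normalised counts in the aPD-L1 libraries, against 566 to 3365 in the aPD-1 libraries, and the highest sum was in R replicate 2. Trem1, a receptor that amplifies inflammation in myeloid cells, had 19.9 and 40.5 in aPD-L1 and 7.66 to 17.7 (median 11.9) in aPD-1. Both aPD-L1 values of Trem1 were below their limits of 43.1 and 65.5, and the gene did not pass (log2 fold change 1.27, SE 0.37, adjusted p = 0.0694). It passed without aPD-L1 replicate 1 (adjusted p = 0.0321). Nlrp3, the sensor of an inflammasome, had 31.9 and 49.1 in aPD-L1 and 9.05 to 20.2 (median 11.8) in aPD-1, with both aPD-L1 values below their limits (log2 fold change 1.60, SE 0.34, adjusted p = 0.0139). Its adjusted p without aPD-L1 replicate 2 was 0.134, within 0.00112 to 0.155 over its alternatives. Fut4, the fucosyltransferase that makes the CD15 sugar of granulocytes, had 42.5 and 98.2 in aPD-L1 and 10.99 to 31.5 (median 17.9) in aPD-1 (log2 fold change 1.92, SE 0.36, adjusted p = 0.00659). That adjusted p was 0.127 without aPD-L1 replicate 2, within 3.0e-04 to 0.395.

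Vessel genes gave 2 rises among 16 tested, beside 5.69% over all tested genes, with 13 above 0 (median 0.72, and 0.23 after subtraction). Kdr, the main receptor for VEGF on endothelium, had 167 and 361 normalised counts in the aPD-L1 libraries, against 70.3, 25.6 and 72.1 in R and 43.1, 25.2 and 51.5 in NR (log2 fold change 2.45, SE 0.39, adjusted p = 0.00186). The value of R replicate 2, 25.6, was among the lowest for Kdr. It lay below the limit of that library, 50.6, and near its scaled negative-control mean, 23.9. Icam2, an endothelial adhesion molecule, had 47.8 and 75.1 in aPD-L1 and 17.7 to 28.8 (median 23.2) in aPD-1 (log2 fold change 1.36, SE 0.29, adjusted p = 0.0156). Tie1, an endothelial receptor kinase, had 25.2 and 54.9 in aPD-L1 and 11.1 to 27.2 (median 18.9) in aPD-1. Both aPD-L1 values of Tie1 were below their limits of 43.1 and 65.5, and the gene did not pass (log2 fold change 1.02, SE 0.33, adjusted p = 0.0992). Without aPD-L1 replicate 1 its log2 fold change was 1.56. Myct1 had 21.2 and 86.7 in aPD-L1 and 10.4 to 21.1 (median 13.8) in aPD-1 (log2 fold change 1.78, SE 0.41, adjusted p = 0.0236). Its value in aPD-L1 replicate 1 lay just above the highest aPD-1 library, and that in replicate 2 well above it. However, the replicate 1 value was below both the limit of its library, 43.1, and the scaled negative-control mean there, 21.9. Only the replicate 2 value exceeded its limit, 65.5. Without aPD-L1 replicate 2 the adjusted p was 0.0719 for Kdr, 0.162 for Icam2 and 0.528 for Myct1, and over all alternatives it ran from 1.1e-06 to 0.0719, 0.00179 to 0.162 and 3.4e-04 to 0.528. The summed level of the vessel list was 1238 and 2381 normalised counts in the aPD-L1 libraries, against 1019 to 1352 in the aPD-1 libraries.

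Stromal and matrix genes gave 1 rise among 12 tested, beside 5.69% over all tested genes. Pdgfrb, a receptor of pericytes and fibroblasts, had 66.4 and 144 normalised counts in aPD-L1 and 21.97 to 43.3 (median 26.9) in aPD-1 (log2 fold change 1.84, SE 0.35, adjusted p = 0.00709). This adjusted p was 0.151 without aPD-L1 replicate 2, within 2.0e-04 to 0.311 over its alternatives. Snai1, a driver of epithelial-mesenchymal transition, had 31.9 and 89.6 in aPD-L1 and 5.92 to 45.3 (median 12.4) in aPD-1 and did not pass (log2 fold change 1.92, SE 0.55, adjusted p = 0.0602). It passed without R replicate 2 (adjusted p = 0.0131) and without aPD-L1 replicate 1 (0.0292). The list had 8 members above 0 and a median of 0.30, which was −0.05 after subtraction.

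Of the Wnt genes, Wnt11 rose. This ligand of the non-canonical Wnt pathway had 114 and 95.4 normalised counts in aPD-L1 and 7.61 to 29.6 (median 12.5) in aPD-1 (log2 fold change 2.95, SE 0.35, adjusted p = 1.7e-04), at least 3.73-fold higher by the bound. It was the 1 called gene of 14 tested in the Wnt list, of which 6 were above 0, beside 5.69% called over all tested genes. Epithelial and mammary genes gave 0 calls among 12, with 9 below 0. Their median of −0.24 turned to 0.02 with total-count scaling, and their summed level was 6310.0 and 6449 normalised counts in the aPD-L1 libraries, against 7369.9 to 10046 in the aPD-1 libraries. Epcam alone, whose counts are given with the library signal, made up most of each of these sums. The sums therefore describe mainly that gene and not the list. Proliferation genes gave 0 calls among 15, with 12 below 0 and a median of −0.48, which was −0.55 with TMM, −0.15 with total-count scaling and −0.33 on the deposited values. Mki67, the proliferation antigen, had 1569 and 1052 in aPD-L1 and 1470.2 to 2319 (median 1792) in aPD-1 (log2 fold change −0.49, SE 0.25, adjusted p = 0.328). Birc5, which encodes the mitotic protein survivin, had 555 and 679 in aPD-L1 and 611 to 2764 (median 1049) in aPD-1 (log2 fold change −1.06, SE 0.52, adjusted p = 0.313), with overlap.

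**Figure D4:**
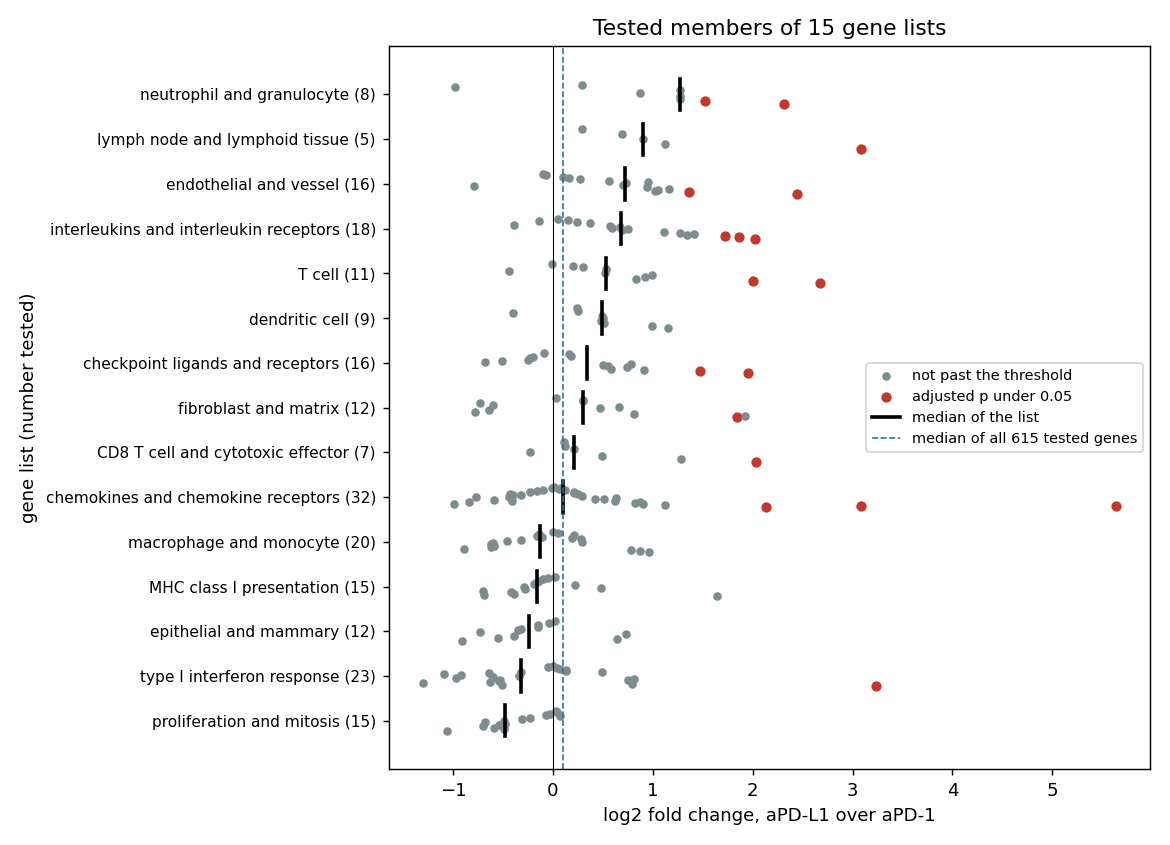
Log2 fold changes of aPD-L1 over aPD-1 for the tested members of 15 gene lists. Each point is a gene, red where the adjusted p was under 0.05, the black bar is the list's median and the dashed line the median of all 615 tested genes, 0.10. The medians run from 1.27 for granulocyte genes to −0.48 for proliferation genes.

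The remaining 9 calls lost the threshold without at least 1 library other than aPD-L1 replicate 2. Tnfrsf1b, the second TNF receptor, had 194 and 124 normalised counts in aPD-L1 and 26.4 to 106 (median 51.4) in aPD-1 (log2 fold change 1.61, SE 0.38, adjusted p = 0.0236). Its adjusted p was 0.0516 to 0.186 without aPD-L1 replicate 1 or 2, R replicate 1 or 3 or NR replicate 1. Tnfrsf14 had 83.6 and 162 in aPD-L1 and 27.9 to 63.4 (median 41.1) in aPD-1 (log2 fold change 1.48, SE 0.36, adjusted p = 0.0298), and 0.0516 to 0.306 without aPD-L1 replicate 2, any R library or NR replicate 1 or 2. Jag1, a Notch ligand, had 334 and 173 in aPD-L1 and 29.8 to 176 (median 62.04) in aPD-1 (log2 fold change 1.80, SE 0.43, adjusted p = 0.0244). Its highest aPD-1 value, in NR replicate 3, exceeded aPD-L1 replicate 2, and its adjusted p came to 0.0516 to 0.247 without aPD-L1 replicate 1, R replicate 1 or 3 or NR replicate 1. Ccnd2, which encodes cyclin D2, had 111 and 272 in aPD-L1 and 19.2 to 94.7 (median 32.5) in aPD-1 (log2 fold change 2.14, SE 0.50, adjusted p = 0.0243), and 0.0520 to 0.305 without aPD-L1 replicate 2, R replicate 1 or 3 or NR replicate 2. S100a9, a calcium-binding protein of neutrophils, had 73.00 and 113 in aPD-L1 and 10.6 to 31.5 (median 15.9) in aPD-1 (log2 fold change 2.31, SE 0.55, adjusted p = 0.0253), and 0.0510 to 0.192 without either aPD-L1 library, R replicate 1 or 3 or NR replicate 1. Itgb2, the beta chain of the leukocyte integrins, had 98.2 and 191 in aPD-L1 and 45.3 to 59.00 (median 48.1) in aPD-1 (log2 fold change 1.53, SE 0.38, adjusted p = 0.0346), and 0.0502 to 0.318 without aPD-L1 replicate 2 or any single aPD-1 library. Slc1a5 had 0.0564 to 0.319 without aPD-L1 replicate 2, any R library, NR replicate 1 or 2 or any PTX or PLX+PTX library. The other 2, Mfng and Thbd, fall outside the rule for named genes and are given after their values were seen. Mfng, which adds sugar to Notch receptors, had 25.2 and 26.01 in aPD-L1 and 9.75 to 11.8 (median 10.8) in aPD-1 (log2 fold change 1.24, SE 0.29, adjusted p = 0.0236), below the limit in every library. Its aPD-L1 counts stood beside scaled negative-control means of 21.9 and 32.5 in those libraries, and after subtraction the log2 fold change was 0.07 (adjusted p = 0.614). By edgeR on the unsubtracted counts its adjusted p was 0.0516 to 0.153 without either aPD-L1 library or R replicate 1 or 3. Thbd, the endothelial receptor of thrombin, had 25.2 and 118 in aPD-L1 and 14.4 to 27.2 (median 19.01) in aPD-1 (log2 fold change 1.74, SE 0.46, adjusted p = 0.0476), and 0.0604 to 0.777 without aPD-L1 replicate 2, R replicate 2 or 3, NR replicate 1 or 2 or any PTX or PLX+PTX library.

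No gene was called lower, and the 5 genes of smallest p in that direction were Igf2r, Slc7a5, Wnt5b, Lamb3 and Ccl12. Igf2r, which clears insulin-like growth factor 2 and sorts lysosomal enzymes, had 637 and 774 normalised counts in the aPD-L1 libraries, against 1252, 953 and 1081 in R and 1421, 1178 and 1284 in NR (log2 fold change −0.76, SE 0.22, adjusted p = 0.0602). Both aPD-L1 libraries were below all 6 aPD-1 libraries. It passed without R replicate 2 (adjusted p = 0.0345) and, as lower, with TMM, DESeq2, subtraction and the deposited values. Slc7a5, the light chain of a transporter of large neutral amino acids, had 275 and 243 in aPD-L1 and 404 to 877 (median 469.9) in aPD-1 (log2 fold change −0.98, SE 0.29, adjusted p = 0.0732). Wnt5b, a non-canonical Wnt ligand, had 346 and 318 in aPD-L1 and 484 to 924 (median 602) in aPD-1 (log2 fold change −0.90, SE 0.27, adjusted p = 0.0808). In both genes R replicate 2 held the highest value. Lamb3, a chain of the basement-membrane protein laminin-332, had 67.7 and 113 in aPD-L1 and 108 to 228 (median 178) in aPD-1 (log2 fold change −0.91, SE 0.28, adjusted p = 0.0869). The higher of its aPD-L1 values lay within the aPD-1 range. Angptl4, an inhibitor of lipoprotein lipase induced by hypoxia, had 50.4 and 101 in aPD-L1 and 99.7 to 279 (median 156) in aPD-1 (log2 fold change −1.24, SE 0.44, adjusted p = 0.137), and passed as lower on the deposited values (adjusted p = 0.0375). The same values called Slc7a5, Wnt5b and Lamb3 lower. DESeq2 called Igf2r, Slc7a5, Wnt5b, Lamb3 and Cebpb lower, and TMM scaling called Igf2r and Lamb3.

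**Figure D5:**
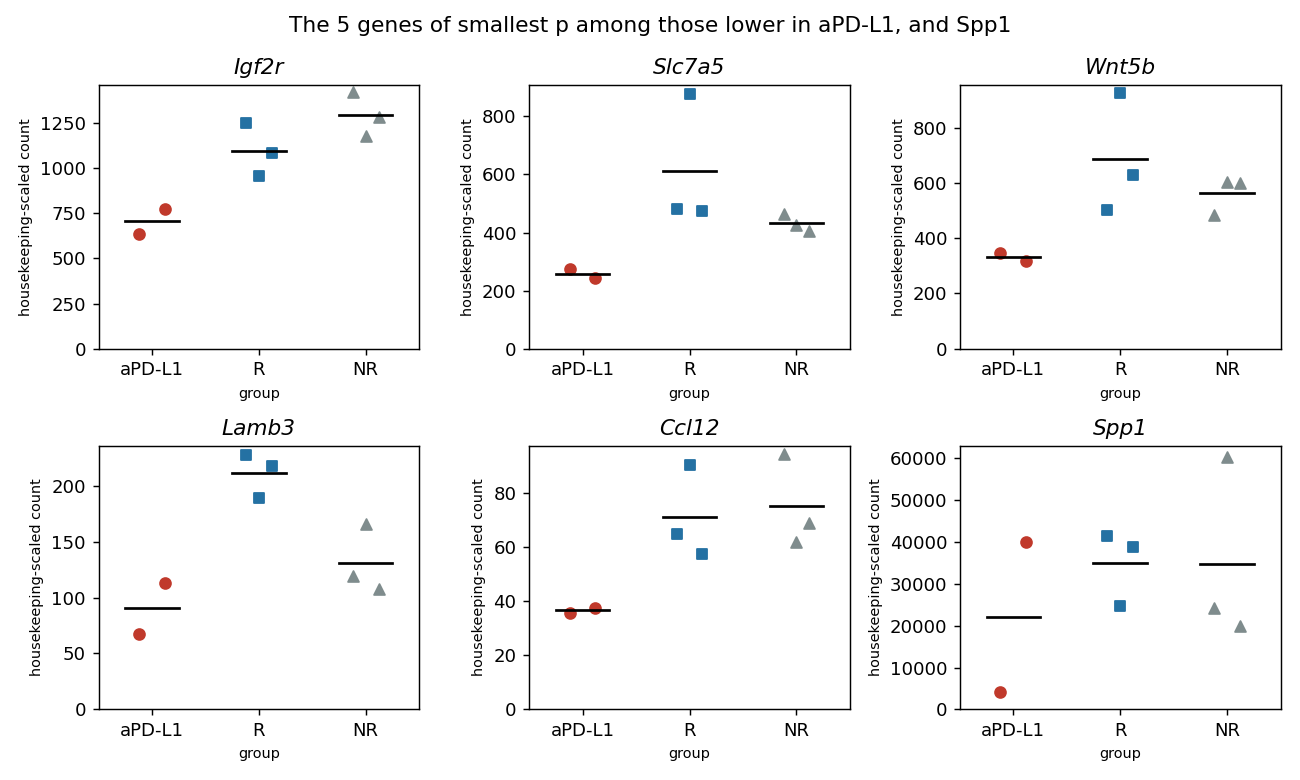
Normalised counts of the 5 genes of smallest p among those lower in aPD-L1, and of Spp1, in the aPD-L1 (n = 2), R (n = 3) and NR (n = 3) libraries. Points are libraries and horizontal lines group means, on linear axes from 0. Igf2r, Slc7a5, Wnt5b and Ccl12 show both aPD-L1 libraries below all 6 aPD-1 libraries, while none of the 6 genes passed the threshold by edgeR on the housekeeping-scaled counts.

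R and NR served together as the comparison group, and each was also taken alone. Against R alone 18 genes rose and 0 fell. Against NR alone 35 rose and 0 fell, of which 27 were among the 35 of the joint comparison. Both comparisons share the 2 aPD-L1 libraries, and 16 genes passed in both. Whether the contrast differs between R and NR was not tested here.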

How the data were processed

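Expression was measured in 12 libraries of MMTV-PyMT tumour RNA with an nCounter panel after cDNA synthesis and multiplex target enrichment, per the labels' protocols. The deposited raw table holds counts of 784 probes, of which 750 were endogenous, 20 housekeeping, 6 positive and 8 negative controls, per the file headers. The authors also deposited log2 values, with a normalisation that the sources used here do not state. DESeq2 and limma are listed, per the submitters' processing notes. Counts were scaled by the housekeeping geometric mean. Probes that reached 20 raw counts in 2 libraries (615, with 135 left out) entered edgeR 4.0.16 (R 4.3.3), with 5 group means over 12 libraries and a contrast of aPD-L1 minus the mean of R and NR. P-values were adjusted over all tested probes. Alternatives used limma 3.58.1 and DESeq2 1.42.0, other scalings and filters, subtraction of negative controls, other reference libraries and each library left out. The SE of a fold change comes from the same fit and reflects the scatter among these libraries. Detection limits cover probe background only.

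Named genes were the called genes up to the 25 largest fold changes in a direction (the 5 of smallest p where a direction had fewer than 5), from each list up to 3 members with the smallest p, and 20 fixed genes. A gene taken by this rule is left out of the text, the lists and the plot of called genes, and stays in the counts. The members, the gene lists and the fixed genes were chosen with earlier results of these data known. Symbols are those of the deposited table, and 744 of 750 were found in a RefSeq table of GRCm38.p6, the other 6 as synonyms. Replicate numbers follow the order of deposition and pair nothing. Chi-square per degree of freedom between pairs of the 8 libraries was 14.3 or more, so none matched within sampling noise. The procedure was also run on simulated counts, whose means were scaled by the housekeeping signal with no separate probe background. That run could not show how background in the low-signal libraries bears on the calls.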

Additional observations from a re-analysis of the deposited data

Results flagged for a closer look

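Among 60 genes examined in the 6 aPD-1 libraries, 6 had a library far from the rest by Dixon's test at the 95% level, of a kind that chance gives in about 1 in 20 groups. All but Cxcl15 pointed to R replicate 2, the aPD-1 library with the low signal. There Slc7a5 had 877 normalised counts, with the other 5 libraries at 404 to 483, and Wnt5b had 924, with the others at 484 to 629. Snai1 had 45.3 in R replicate 2, with the others at 5.92 to 13.9, and Ccl19 had 35.5, with the others at 11.8 to 19.2. Hdc had 29.6 in the same library, with the others at 3.48 to 10.5. In R replicate 2 the values of Snai1, Ccl19 and Hdc lay below the limit of 50.6, beside a scaled negative-control mean of 23.9. Cxcl15 pointed to R replicate 1, with 265 normalised counts and the others at 8.45 to 25.8. Both aPD-L1 libraries were higher than these values for Cxcl15 (848 and 3464) and Hdc (122 and 162), and lower than them for Slc7a5 (275 and 243) and Wnt5b (346 and 318).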

How the results depend on the processing

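The 35 higher and 0 lower genes became 69 and 0 with total-count scaling (which moved the median of all genes by 0.27), 35 and 2 with TMM (which moved it by −0.11) and 42 and 0 with the 17 housekeeping probes detected in every library. Without a filter there were 55 and 0, at a mean raw count of 50 or more 5 and 0 of 401 tested, and with detection in at least 10 libraries 4 and 0 of 402 tested, where 13 and 11 of the 35 could be tested. DESeq2 gave 40 and 5, limma-voom 32 and 0, subtraction 24 and 3, the deposited values 28 and 33, the 8 libraries alone 29 and 0, and R and NR merged 33 and 0. Against R alone there were 18 and 0, against NR alone 35 and 0, and against R replicate 2 alone 3 and 3 (lower Slc7a5, Tgfb2 and Wnt5b). With each library left out in turn the counts ran from 14 to 53 higher and 0 to 2 lower.

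Of the gene values under the alternatives, 1326 kept direction and side of the threshold, 175 fell short of it, 39 newly passed and 11 turned sign. With each library left out, the log2 fold change of Cd274 ran from −0.28 to 1.55, of Itgae from −0.48 to 1.90, of Spp1 from −3.03 to 0.20 and of Csf1r from −0.067 to 0.15. Gzmb was −0.11 after subtraction and −0.23 against R alone. Csf1r was −0.070 with TMM, −0.025 after subtraction and −0.13 against R alone, and without single libraries −0.067 (R replicate 2), −0.064 (NR replicate 2) and −0.043 (aPD-L1 replicate 2). Cd274 and Itgae turned sign without aPD-L1 replicate 2, and Spp1 without aPD-L1 replicate 1. The cause was not tested. No paired analysis was possible because the labels give no replicate numbers and nothing ties a library of one group to a library of another. The aPD-L1 libraries had the limits 43.1 and 65.5 normalised counts, and 5 of the 35 rises lay below both, of which 3 passed after subtraction.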

Other observations

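Genes of DNA repair, hypoxia, glycolysis, apoptosis, PI3K and TGF-beta signalling gave no calls. Of 17 tested DNA repair genes 7 were above 0 (median −0.07, and 0.24 with total-count scaling), of 16 hypoxia genes 5 (median −0.16), and of 13 glycolysis and glucose transport genes 4 (median −0.12, and 0.02 with total-count scaling). The summed hypoxia level was 16064 and 38699 normalised counts in the aPD-L1 libraries, against 26104 to 42096 in the aPD-1 libraries, so aPD-L1 replicate 1 was below all 6 aPD-1 libraries and aPD-L1 replicate 2 within their range. Apoptosis genes lay on both sides of 0 (8 of 15 above, median 0.00), and so did those of PI3K, AKT and MAPK signalling (12 of 22 above, median 0.19, and −0.01 on the deposited values). Of 9 tested TGF-beta ligands and receptors 5 were above 0 (median 0.18, and −0.09 on the deposited values).

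Antigen presentation by class II molecules and the response to interferon gamma also gave no calls. Of 6 tested class II genes 5 were above 0 (median 0.22), with −0.75 without aPD-L1 replicate 2 and 0.85 without replicate 1. Of 9 tested interferon gamma genes 5 were above 0 (median 0.26, and −0.02 after subtraction), and of 9 dendritic cell genes 8 (median 0.49, and −0.02 after subtraction). Single calls stood in the mast cell list (Hdc, 1 of 4, median 0.08, and −0.07 with TMM), the Notch list (Jag1, 1 of 10, median 0.13, and −0.01 with TMM) and the NF-kappaB and innate sensing list (Nlrp3, 1 of 28). Integrin and adhesion genes held Itgb2 and Icam2 (2 of 15), amino acid and nucleotide metabolism Slc1a5, Tymp and Hdc (3 of 15), and markers of other tissues Sox2, Cxcl15 and Hc (3 of 8). Over all tested genes 5.69% were called.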
